A study of Homo sapiens with 9 samples.

Results

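The nuclear pore complex is the large ring-shaped channel in the nuclear envelope through which proteins and RNAs pass between nucleus and cytoplasm. Its messenger RNAs were followed here as 32 genes of the 16222 in the deposited count table. They were chosen by name: every symbol made of NUP and a number, with RANBP2, TPR, SEH1L, SEC13, RAE1, NDC1, POM121, POM121C, AAAS, GLE1 and AHCTF1. The naming rule used no measured value, but it was set with earlier results of these data known. All 32 passed the filter on low counts and were tested. The cells were THP-1, a human monocytic leukaemia line of wild-type genotype. In every group they had been stimulated with PMA, a phorbol ester under which this line adheres and takes on macrophage features. Afterwards 3 libraries were made from cells given PBS (control), 3 from cells given LPS, the lipopolysaccharide of Gram-negative bacteria, and 3 from cells given LPS together with ABS (LPS_ABS). ABS is not spelled out in the labels, while the title concerns apoptotic bodies, macrophage polarization and hydrogel microspheres. The labels used here state no dose and no time. All libraries came from 1 line, and separate cultures are not mentioned for the replicates, so each p-value reflects spread among libraries that may be only technical.

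Pore proteins, or nucleoporins, assemble from subcomplexes that are present in many copies. The outer (Y-shaped) ring complex and the inner ring form the scaffold, membrane nucleoporins anchor it in the envelope, and nucleoporins rich in phenylalanine-glycine repeats fill the central channel as a selective barrier. Filaments on the cytoplasmic face take part in releasing exported messenger RNA, and a basket on the nuclear face receives cargo. Soluble carriers of the karyopherin family cross the channel with their cargo in a direction set by the small GTPase Ran.

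Total counts ranged from 38506162 to 41679412 per library, and the 32 pore genes together took between 0.323% and 0.364% of the counts in controls, between 0.244% and 0.272% with LPS and between 0.255% and 0.368% with LPS_ABS. The LPS_ABS libraries differed from the rest in a trend of counts with transcript GC content. Levels here are CPM, read counts scaled to library size. The slope of log2 CPM against GC percentage, taken relative to the mean library and expressed for 10 GC points, lay between 0.22 and 0.36 in the LPS_ABS libraries and between -0.30 and -0.02 in the other 6. Each comparison with LPS_ABS is therefore given both without and with an offset for this trend. All 12 monocyte and macrophage markers examined were in the table, with summed levels of 1444 to 1560 CPM in the control libraries, 1656 to 1696 CPM under LPS and 1746 to 1964 CPM under LPS_ABS. Of the T cell markers only CD2 was measured, at no more than 0.0243 CPM in any library. Summed fibroblast markers stayed at or below 1.73 CPM, chondrocyte markers at or below 0.264 CPM, epithelial markers at or below 3.65 CPM and B cell markers at or below 8.76 CPM. Endothelial markers summed to 217 to 356 CPM, nearly all from PECAM1, a gene that monocytes also express. In bulk RNA, fewer cells that express a gene and less of its RNA per cell cannot be told apart.

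Pore genes differed widely in level. Per length of transcript (FPKM, mean ± SD, n = 3), control cells held most of NUP62, a repeat protein of the central channel, at 64.3 ± 2.0, and of SEC13, a small outer ring protein that also coats transport vesicles, at 63.0 ± 1.35. The ranges of these 2 genes over the libraries overlapped. NUP210, a membrane glycoprotein of the pore, followed at 47.4 ± 9.67, below every SEC13 library. From NDC1 at 33.2 ± 0.982 down to NUP98 at 24.2 ± 2.92, a stretch of 8 genes that includes AAAS, NUP93, NUP85, NUP188, GLE1 and NUP205, each gene overlapped the next in the order. At the low end stood NUP54 at 6.24 ± 0.246, NUP35 at 4.94 ± 0.778 and RANBP2, the giant cytoplasmic filament protein, at 3.14 ± 0.708, and these 3 did not overlap one another. RANBP2 was also the lowest with LPS, at 2.63 ± 0.324 and overlapping NUP35, and with LPS_ABS at 1.12 ± 0.415. The highest 3 means were again those of NUP62, SEC13 and NUP210, in another order. SEC13 led with LPS at 43.5 ± 1.06 and NUP210 with LPS_ABS at 66.2 ± 19.1. In both groups neighbours among these 3 genes overlapped. With LPS the third, NUP210, also overlapped AAAS, the next gene. With LPS_ABS the third, SEC13, lay above every AAAS library.

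**Figure D1:**
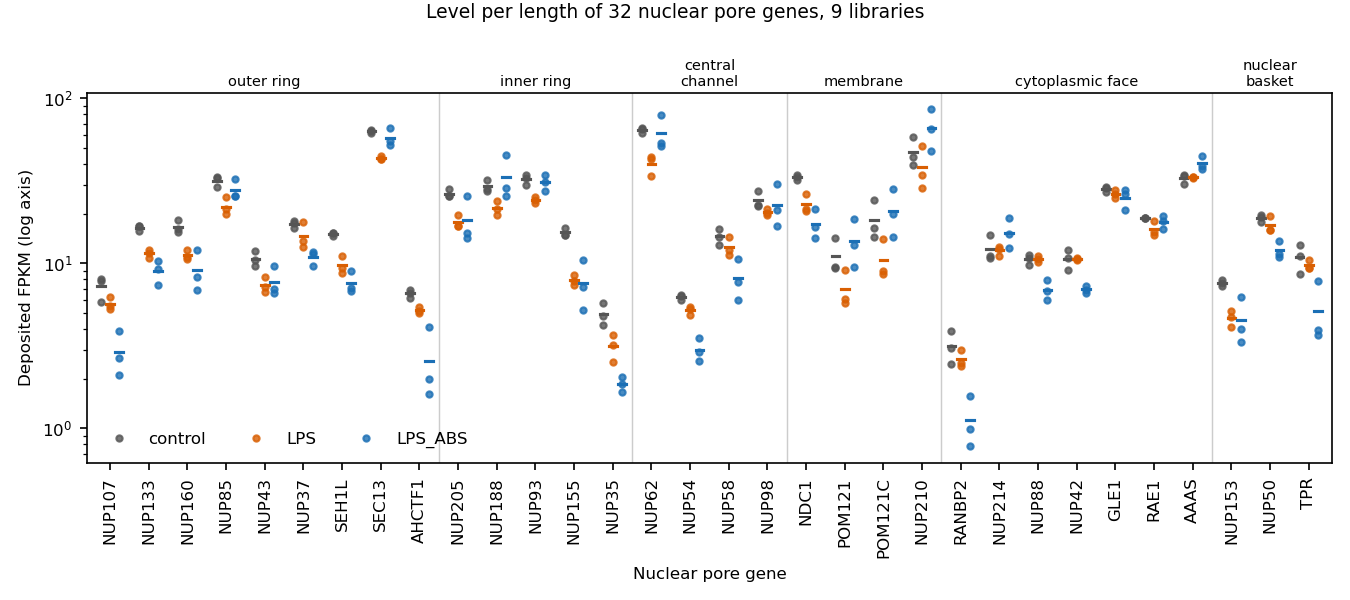
Deposited FPKM (log axis) of the 32 pore genes, ordered by subcomplex, with 1 point per library and a bar at the mean of the 3 libraries of each group. NUP62, SEC13 and NUP210 lie highest, with control means of 64.3, 63.0 and 47.4, and RANBP2 lowest at 3.14.

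In cells given LPS, messenger RNAs of 7 of the 14 genes of the pore scaffold, its outer and inner rings, were lower than in controls, and 0 of the 7 genes of the cytoplasmic face passed the test. Of all 32 pore genes, 10 fell and 0 rose (edgeR quasi-likelihood test, Benjamini-Hochberg adjusted p under 0.05), where 7.19% of all genes tested fell and 7.71% rose. The 10 made 31.2% of the pore genes. Log2 fold changes were negative in 28 of 32, with a median of -0.36 beside -0.03 over all genes tested. In 19 of the 32 all LPS libraries lay below all control libraries, and in 0 they lay above them; over all genes tested 22.7% were separated downward and 19.9% upward. With an unadjusted p under 0.05, 16 were lower and 0 higher, beside 15.2% and 14.2% of all genes. Both DESeq2 and limma-voom also called 0 higher, where 9.54% and 7.90% of all genes were. With the GC offset, 13 fell (background 9.68%) and 0 rose (background 11.4%), and the median was -0.32. The number of falls depended on single libraries: it was 2, 1 and 2 without control 1, 2 and 3, and 6, 4 and 1 without LPS 1, 2 and 3, when 2.50% to 5.21% of all genes fell. With the offset these leave-outs gave 6, 5 and 4 falls without a control and 6, 5 and 4 without an LPS library, when 4.63% to 6.80% of all genes fell. Of the 10 falls without the offset, NUP155 was the 1 called in all 9 leave-outs. The median over the 32 genes stayed between -0.33 and -0.40 in all of the leave-outs without the offset.

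**Figure D2:**
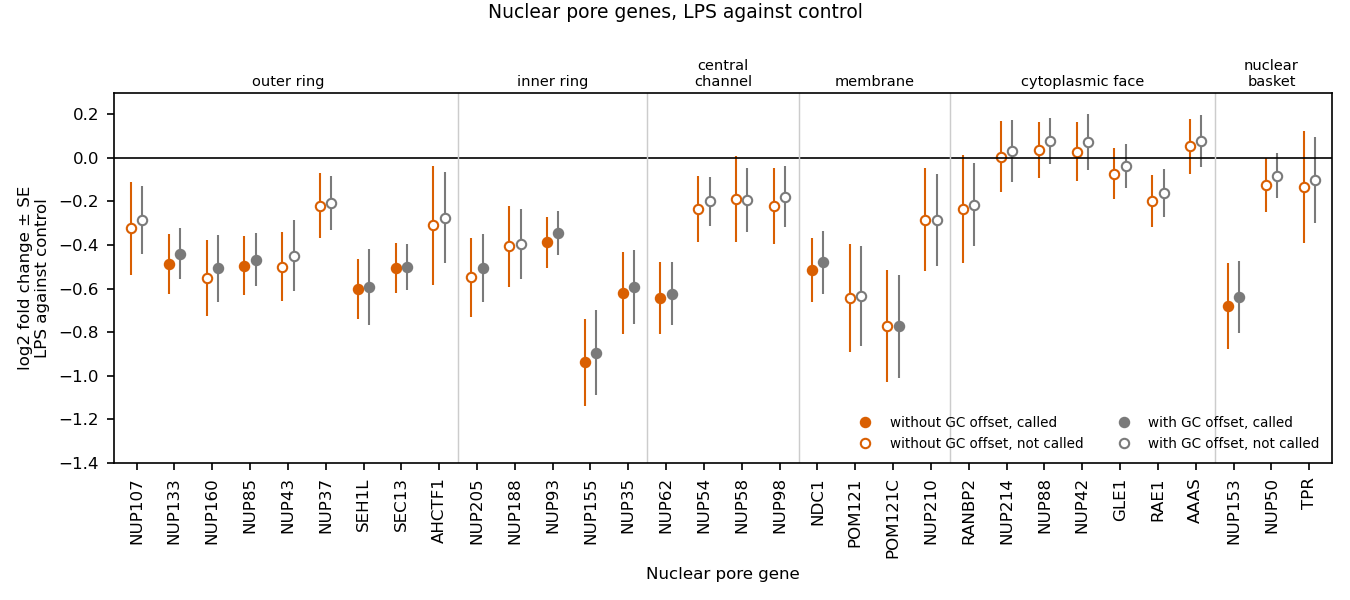
Log2 fold change ± SE of LPS against control for the 32 pore genes by subcomplex, without the GC offset (orange) and with it (grey); filled points passed the adjusted p threshold of 0.05. The scaffold genes lie below 0, NUP155 lowest at -0.94, while the 7 genes of the cytoplasmic face lie between -0.24 and 0.05 without the offset.

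The outer ring held 4 of the 10 falls among its 9 genes, SEH1L, SEC13, NUP85 and NUP133, and all 9 had negative fold changes. SEH1L, which like SEC13 also serves in a complex that regulates mTORC1 signalling, stood at 57.6, 60.3 and 61.1 CPM in controls 1 to 3, at 43.5, 38.0 and 36.3 CPM in LPS 1 to 3 and at 31.7, 29.1 and 38.1 CPM in LPS_ABS 1 to 3. Each LPS library was below each control library. The log2 fold change of LPS against control was -0.60 ± 0.14 (SE), a level 1.52-fold lower (edgeR adjusted p = 0.0122). SEC13 was tightly grouped, at 136, 138 and 135 CPM in controls against 91.9, 99.0 and 97.9 CPM with LPS, and at 136, 122 and 153 CPM with LPS_ABS. LPS and control libraries did not overlap, and those with LPS_ABS lay on both sides of the controls. SEC13 thus changed by -0.51 ± 0.12 with LPS, 1.42-fold lower (edgeR adjusted p = 0.0128). NUP85, which joins SEH1L to the Y complex, measured 88.3, 102 and 103 CPM in controls, 76.7, 62.8 and 68.6 CPM with LPS and 89.5, 84.2 and 108 CPM with LPS_ABS. Again the LPS libraries were all below the controls, and NUP85 changed by -0.49 ± 0.14 (edgeR adjusted p = 0.0294). NUP133, at the stalk of the Y, read 78.1, 83.4 and 86.1 CPM in controls, 60.4, 59.4 and 56.9 CPM with LPS and 52.8, 40.0 and 56.0 CPM with LPS_ABS. Controls stood above the other 6 libraries, and the change with LPS was -0.49 ± 0.14 (edgeR adjusted p = 0.0342). Each of these calls leaned on individual libraries. SEH1L missed the threshold without control 2, control 3, LPS 2 or LPS 3 (edgeR adjusted p of 0.0542 to 0.0701), and SEC13 without control 1, control 2 or LPS 3 (0.0549 to 0.0596). NUP85 missed it without any control, LPS 2 or LPS 3 (0.054 to 0.135), and NUP133 without any control or LPS library (0.0559 to 0.127). NUP160 and NUP43 stood just outside the threshold, at -0.55 and -0.50 (edgeR adjusted p of 0.0513 and 0.0519), and NUP160 passed it with the GC offset (0.0339) but not in 6 of 9 leave-outs (adjusted p up to 0.135). The remaining 3 were NUP107 at -0.32, AHCTF1, the chromatin-binding member that seeds pore assembly after mitosis, at -0.31, and NUP37 at -0.22. Of the AHCTF1 transcript, 48.4% of 50-base windows also occur in other transcripts, chiefly AHCTF1P1, so that its counts may include that pseudogene's reads.

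The inner ring, which lines the channel and binds the membrane, was separated in full: for all 5 genes each LPS library lay below each control. NUP155, a scaffold protein of that ring, showed the largest fall of the 32 genes. Its level was 119.9, 119 and 134 CPM in controls, 62.3, 70.3 and 62.1 CPM with LPS and 65.7, 45.2 and 91.0 CPM with LPS_ABS. The LPS libraries and all LPS_ABS libraries were below the lowest control. NUP155 changed by -0.94 ± 0.20 with LPS, 1.92-fold lower (edgeR adjusted p = 0.00902), and passed the threshold in all 9 leave-outs (adjusted p up to 0.0463). NUP35, which bends membrane at the pore, changed by -0.62 ± 0.19 (edgeR adjusted p = 0.0441), and NUP93, the hub that holds the ring together, by -0.39 ± 0.12 (0.0456). Both calls lay close to the threshold: NUP35 was lost in 5 of 9 leave-outs and NUP93 in 7 of 9. NUP205 and NUP188, a related pair of very large ring proteins, did not pass, at -0.55 and -0.41 (edgeR adjusted p of 0.061 and 0.167), and NUP205 passed with the GC offset (0.0351) but not in 6 of 9 leave-outs (up to 0.122).

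In the central channel NUP62 alone passed the test among 4 genes. It measured 211, 214 and 206 CPM in controls, 109.9, 147 and 148 CPM with LPS and 192, 188 and 279.5 CPM with LPS_ABS. LPS libraries were the lowest in every case, and the LPS_ABS libraries straddled the controls. NUP62 changed by -0.64 ± 0.17 with LPS, 1.56-fold lower (edgeR adjusted p = 0.0222), a call lost without any 1 control, LPS 1 or LPS 3 (0.0516 to 0.0747) and kept in all 9 leave-outs with the GC offset. Its transcript shares 19.0% of 50-base windows with other transcripts of the same strand, among them IL4I1, an amino acid oxidase gene whose own level was 46.2 to 112 CPM, so reads of the shared part cannot be told apart. A further 16.4% of NUP62 windows lie antisense to other transcripts, chiefly ATF5, and strand handling is unknown. NUP54 and NUP58, the partners of NUP62 in the channel trimer, and NUP98, a mobile repeat protein, gave -0.23, -0.19 and -0.22, none past the threshold (edgeR adjusted p of 0.343 to 0.578).

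NDC1 was the only 1 of the 4 membrane genes to pass, at -0.51 ± 0.15 (edgeR adjusted p = 0.0351), and was lost in 5 of 9 leave-outs. POM121C and POM121, near-identical anchoring proteins, had larger but more variable differences of -0.77 and -0.64 (edgeR adjusted p of 0.0627 and 0.101). POM121C stood at 91.6, 81.4 and 138 CPM in controls and 48.4, 80.6 and 53.4 CPM with LPS, and POM121 at 90.9, 92.9 and 142 CPM against 58.8, 91.2 and 58.8 CPM. In both genes control 3 lay far above the other controls and LPS 2 far above the other LPS libraries. POM121C passed with the GC offset (edgeR adjusted p = 0.0352) but not in 5 of 9 leave-outs (up to 0.177). These 2 genes share 63.3% and 35.0% of their 50-base windows with other transcripts, mostly each other, and POM121 also lies antisense to transcripts of NSUN5 and its copies over 31.2% of its windows, so the count of each is uncertain. NUP210 gave -0.28 (0.465), with LPS 2 at 540.1 CPM against 294 and 368 CPM in LPS 1 and LPS 3.

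On the cytoplasmic face 0 of 7 genes passed, and the median was 0.01. NUP214 and NUP88, which form the platform for messenger RNA release, gave 0.01 and 0.04. NUP42 and GLE1, which act with the RNA helicase DDX19 there, gave 0.03 and -0.07, the export factor RAE1 gave -0.20, AAAS, a WD-repeat protein tethered by NDC1, gave 0.05, and RANBP2 gave -0.24. Adjusted p-values (edgeR) of the 7 ran from 0.305 to 0.987, and RAE1 was the 1 gene of the face with separated groups. Of the nuclear basket, NUP153 passed at -0.68 ± 0.20 (edgeR adjusted p = 0.0369), with 39.7, 41.1 and 44.0 CPM in controls and 28.0, 23.0 and 26.9 CPM with LPS, and was lost without any 1 control or LPS library (0.0579 to 0.139). NUP50, an import cofactor, gave -0.12, and TPR, the coiled-coil protein that builds the basket, gave -0.13, neither past the threshold. The difference between the scaffold and the cytoplasmic face is a description of these genes and was not tested.

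**Figure D3:**
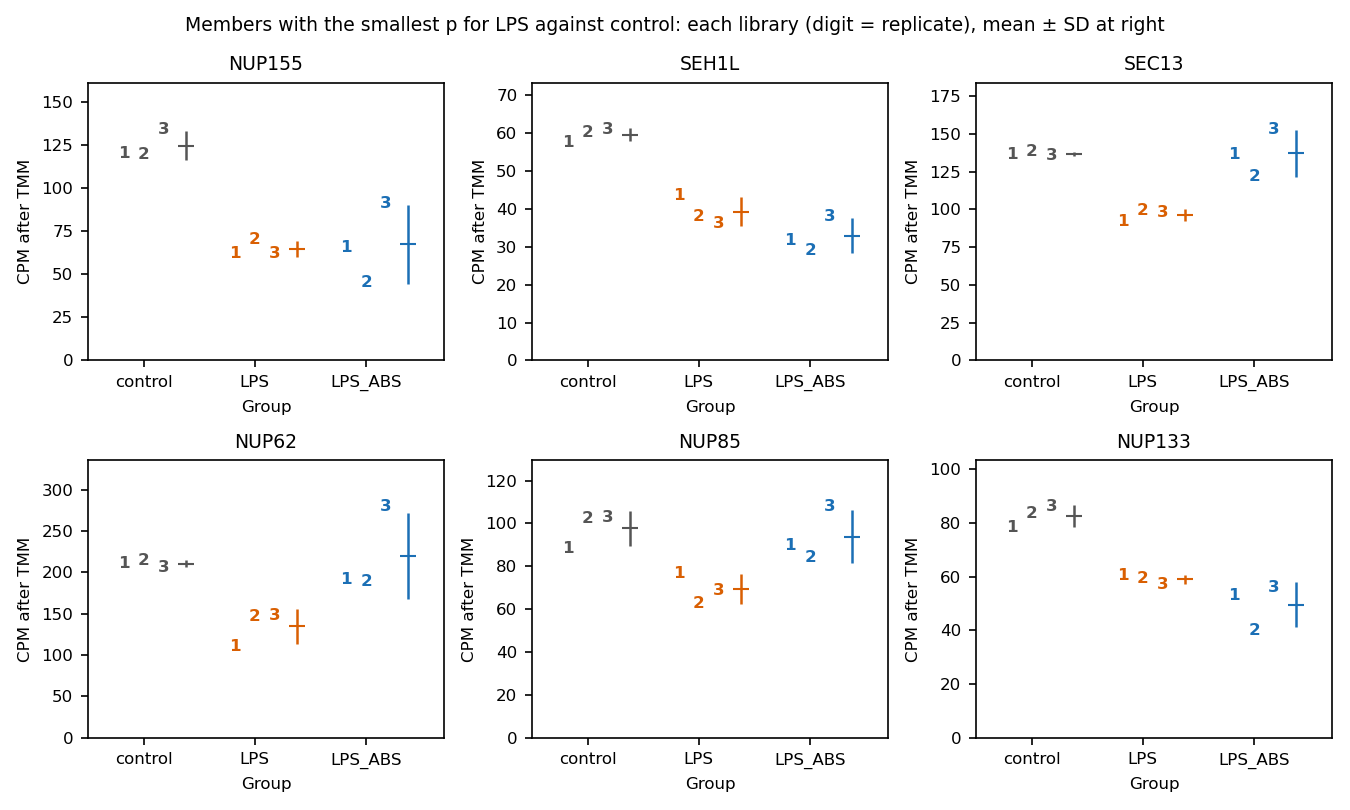
CPM after TMM scaling in each library (digits mark the replicate) of the 6 pore genes with the smallest p for LPS against control, with mean ± SD (n = 3) at the right of each group. LPS libraries lie below controls throughout; the LPS_ABS libraries straddle the controls for SEC13, NUP62 and NUP85 and stay below them for NUP155, SEH1L and NUP133.

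Promoter sequences were read for 29 of the 32 genes from RefSeq (GRCh38.p14), as windows from 250 bases before to 50 bases after a listed start. Some genes, among them NUP50 and NUP160, have further listed starts. A gene was counted where any of its windows held the motif, for pore genes and all genes alike. The ETS-type motif CCGGAAG occurred on either strand in 13 of the 29 (44.8%), where 12.2% of 27305 genes hold it. These 27305 are all genes with a listed promoter and are not limited to the 12970 genes tested. The NRF1 motif, the half-site GCGCA followed directly by its reverse complement, occurred in 3 of 29 (10.3% against 1.52%), in NUP107, NUP50 and NUP62. The shorter CCAAT box was in 11 of 29 (37.9% against 39.7%) and the E-box CACGTG in 2 of 29 (6.9% against 8.77%). None of the motifs contains another. These are matches of letters in a window and no measure of binding. Of the genes called lower with LPS, SEH1L, SEC13 and NUP35 hold CCGGAAG and NUP62 holds the NRF1 motif. NUP155, NUP85, NUP133, NUP93, NDC1 and NUP153 hold neither, and the remaining holders of either motif were not called. A link between motif and change was not tested. The 250 bases upstream of 2 genes that fell with LPS are shown for the 2 motifs, SEH1L on the plus strand at chr18:12947761-12948010 with CCGGAAG in capitals, and NUP62 on the minus strand at chr19:49929505-49929754 with the NRF1 motif in capitals, both 5′ to 3′ along the gene.
SEH1L: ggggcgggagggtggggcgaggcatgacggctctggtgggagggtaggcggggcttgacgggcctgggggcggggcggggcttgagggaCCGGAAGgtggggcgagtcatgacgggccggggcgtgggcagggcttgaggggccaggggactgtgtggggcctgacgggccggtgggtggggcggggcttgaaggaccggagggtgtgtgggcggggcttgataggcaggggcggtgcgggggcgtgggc
NUP62: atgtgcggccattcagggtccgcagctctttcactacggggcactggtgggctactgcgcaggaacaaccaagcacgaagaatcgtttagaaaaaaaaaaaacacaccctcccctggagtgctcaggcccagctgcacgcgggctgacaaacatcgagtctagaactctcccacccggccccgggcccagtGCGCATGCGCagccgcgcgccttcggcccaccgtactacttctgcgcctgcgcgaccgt

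Between LPS_ABS and LPS, differences of the pore genes followed the base composition of their transcripts. Against LPS alone 10 of the 32 were higher and 9 lower with LPS_ABS, where 16.8% of all genes tested were higher and 18.8% lower. Scaled by total counts in place of TMM, 7 members were higher and 11 lower and the background was 11.5% and 23.7%, as the median of all genes moved from 0.02 to -0.09 and that of the members from 0.04 to -0.06. Without LPS 1 the counts were 6 and 5 (7.63% and 10.3% of all genes), without LPS 3 they were 6 and 4 (8.93% and 11.8%), and without LPS_ABS 2 they were 8 and 5 (12.4% and 12.2%). The members' median was -0.22 without LPS_ABS 3. Transcripts of the 32 genes ran from 36.4% GC (NUP58) to 58.4% (NUP62), with a median of 44.1%. Of the 18 pore genes under 45% GC, a split chosen with these values known, 0 were higher and 8 lower, and of the 14 at 45% or more 10 were higher and 1, NUP88, was lower. All genes tested showed the same tilt: under 45% GC, 42 were higher and 2102 lower of 4570, and at 45% or more 2130 were higher and 332 lower of 8325. Across the 32 genes Spearman's rho between fold change and GC content was 0.85, and across 12895 genes it was 0.69; these points share the same 6 libraries and are a description. With the GC offset the values were 0.39 and 0.01. After the offset 2 pore genes were higher, NUP93 and NUP43, and 1 was lower, NUP88, where 5.0% of all genes were higher and 4.23% lower. The share of members called was then 9.38%, beside 9.22% of all genes. Fold changes were positive in 22 of 32 with the offset, with a median of 0.21 beside 0.00 over all genes, and the median was 0.07 without LPS_ABS 3. All 3 LPS_ABS libraries carry the GC trend, so the trend and the treatment cannot be told apart.

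**Figure D4:**
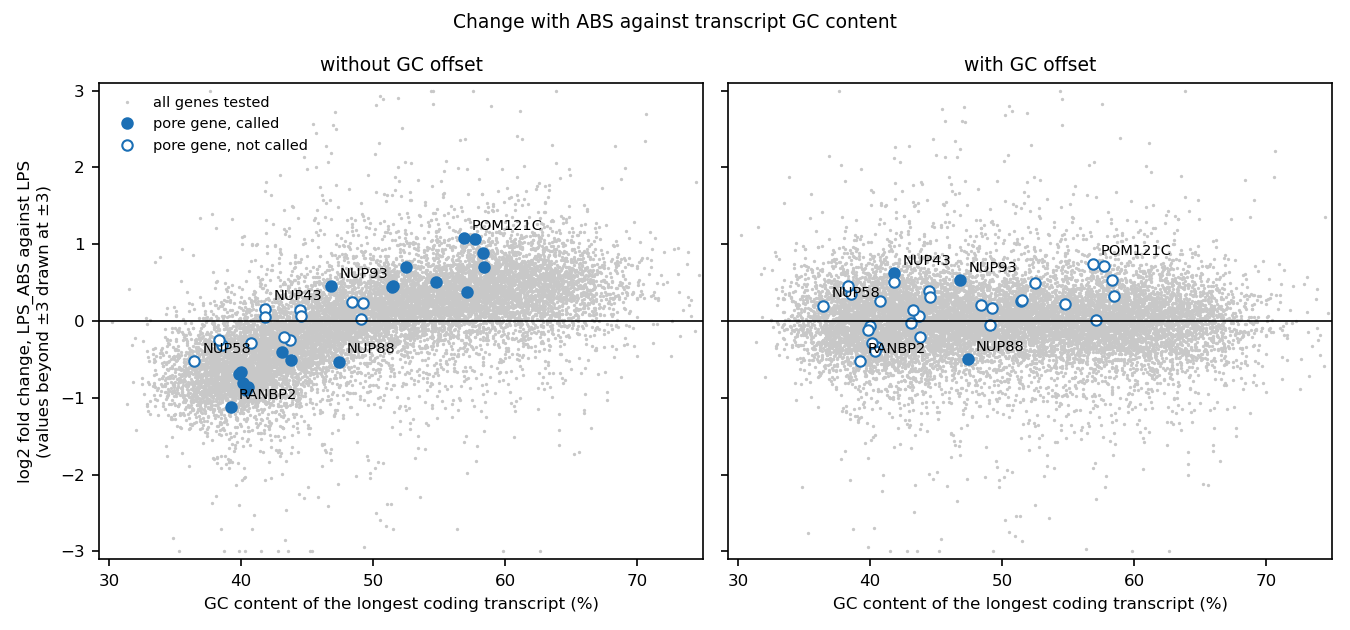
Log2 fold change of LPS_ABS against LPS (vertical axis; values beyond ±3 drawn at ±3) against the GC content of the longest coding transcript (horizontal axis, percent), for all genes tested (grey) and the 32 pore genes (blue, filled where called), without the GC offset at left and with it at right. At left the pore genes climb with GC, with a Spearman's rho of 0.85, and at right the called ones are NUP93, NUP43 and NUP88.

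The span in composition is visible in the coding sequences. In NUP35, 26.7% of codons end in G or C, the lowest share of the 32 genes, and in NUP210 it is 75.4%, the highest. Bases 301 to 420 of the 2 coding sequences, counted from the start codon in the GENCODE transcript, are given 5′ to 3′ with each G or C at the third base of a codon in capitals. Of the 40 codons, 6 end in G or C in NUP35 and 35 in NUP210.
NUP35: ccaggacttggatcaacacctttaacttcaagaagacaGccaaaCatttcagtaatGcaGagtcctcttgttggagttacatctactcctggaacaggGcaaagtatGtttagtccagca
NUP210: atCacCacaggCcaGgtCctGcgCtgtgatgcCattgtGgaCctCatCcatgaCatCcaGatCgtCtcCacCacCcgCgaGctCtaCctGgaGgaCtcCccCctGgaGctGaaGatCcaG
NUP35 stood at 9.10, 6.43 and 8.31 CPM with LPS and at 5.21, 4.42 and 5.45 CPM with LPS_ABS, lower by 0.66 on the log2 scale without the offset (edgeR adjusted p = 0.021) and at -0.06 with it (0.849). NUP210 stood at 294, 540.1 and 368 CPM with LPS and at 554, 718 and 944 CPM with LPS_ABS, higher by 0.88 without the offset (edgeR adjusted p = 0.0155) and at 0.53 with it (0.124). Neither NUP35 nor NUP210 was called once the offset was in the model.

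The 6 genes with the smallest p for LPS_ABS against LPS without the offset were NUP54, RANBP2, SEC13, POM121, NUP62 and POM121C, and 0 of the 6 passed with the offset. NUP54 read 25.1, 23.8 and 27.0 CPM with LPS and 19.1, 14.8 and 13.1 CPM with LPS_ABS, without overlap. The difference for NUP54 was -0.69 ± 0.15 (edgeR adjusted p = 0.00776) and with the offset -0.11 (0.542). RANBP2 read 37.8, 32.3 and 31.7 CPM against 22.7, 10.7 and 13.5 CPM. It was lower in all 3 LPS_ABS libraries, by 1.12 ± 0.25 on the log2 scale, 2.17-fold (edgeR adjusted p = 0.00803), and with the offset the value was -0.53 ± 0.19 (0.0998). RANBP2 shares 26.6% of its 50-base windows with other transcripts, mainly RGPD genes, whose 7 members together reached 0.808 to 3.90 CPM. SEC13 and NUP62, whose values are given above, were higher with LPS_ABS by 0.51 ± 0.12 (edgeR adjusted p = 0.00849) and 0.71 ± 0.17 (0.00934). With the offset they were at 0.22 and 0.33 (0.184 and 0.157). POM121 read 58.8, 91.2 and 58.8 CPM with LPS and 106, 137 and 195 CPM with LPS_ABS, and POM121C read 48.4, 80.6 and 53.4 CPM against 92.6, 122 and 170.5 CPM. Groups were separated for both, with 1.07 ± 0.25 for POM121 (edgeR adjusted p = 0.00911) and 1.08 ± 0.26 for POM121C (0.0102), and with the offset 0.71 (0.0678) and 0.75 (0.0641). Each of these 6 differences without the offset passed in all 9 leave-outs.

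The 3 differences between LPS_ABS and LPS that passed with the GC offset came from transcripts of 41.8% to 47.4% GC. NUP93 read 83.9, 85.2 and 94.4 GC-corrected CPM with LPS and 124, 128 and 128 with LPS_ABS, beside 105, 112 and 117 in controls. Its LPS_ABS libraries were above all others. NUP93 was higher by 0.53 ± 0.10, 1.44-fold (edgeR adjusted p = 0.0114), was called in all 9 leave-outs, and without the offset was also called at 0.46 (0.0137). NUP88 read 39.5, 40.0 and 38.9 GC-corrected CPM with LPS, 27.1, 27.6 and 29.1 with LPS_ABS and 39.0, 39.1 and 34.2 in controls. All LPS_ABS libraries lay below the other 6. NUP88 was lower by 0.50 ± 0.11 (edgeR adjusted p = 0.0176), also called without the offset (0.0104), but not with the offset when LPS 1 (0.0527) or LPS 3 (0.0654) was left out. Of the NUP88 transcript 16.4% of 50-base windows lie antisense to RPAIN, and the strand setting of the counting is not given in these labels. NUP43, a peripheral outer ring protein, read 36.3, 51.0 and 44.4 GC-corrected CPM with LPS and 58.2, 60.3 and 84.6 with LPS_ABS, separated but variable. NUP43 gave 0.62 ± 0.16 (edgeR adjusted p = 0.0354), lost in 6 of 9 leave-outs (0.0524 to 0.124), and 0.16 without the offset (0.443). POM121C, next by p, did not pass, at 0.75 (edgeR adjusted p = 0.0641). It read 59.3, 79.8 and 56.0 GC-corrected CPM with LPS and 76.3, 106 and 146 with LPS_ABS, with overlap. Counts with the offset moved with LPS_ABS 1: without it 10 members were higher and 5 lower, where 11.3% and 9.68% of all genes were. Without control 1, control 2 or LPS_ABS 3 they were 1 and 1, where 2.79% to 3.11% of all genes were higher and 2.33% to 2.46% lower. Without LPS 1 or LPS 3 they were 1 and 0, where 0.852% to 1.32% were higher and 0.571% to 1.17% lower. A count of 1 in 32 is near these shares.

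Against controls, cells given LPS_ABS had 17 of the 32 pore genes lower and 2 higher, where 19.0% of all genes were lower and 14.8% higher. This comparison shares its control libraries with LPS against control and its LPS_ABS libraries with LPS_ABS against LPS, so the 3 sets of calls are not independent. Under 45% GC 16 of 18 pore genes were lower, beside 2184 of 4570 genes in all, and at 45% or more 1 of 14 was lower and 2 higher (7.14% and 14.3%), beside 3.35% and 22.1% of all genes in that range. Total-count scaling gave 19 lower and 0 higher, with a background of 25.2% and 9.19%, the median of all genes moving from 0.05 to -0.08. The higher calls were 0 without control 1 or control 2 and 1 without LPS 3, LPS_ABS 2 or LPS_ABS 3. In these leave-outs 6.90% to 16.1% of all genes were higher. With the GC offset 4 were lower, NUP88, NUP107, RANBP2 and NUP35, and 0 were higher (background 5.04% and 7.96%); at an unadjusted p under 0.05 they were 9 and 0 (background 12.7% and 15.6%), so that 28.1% of members and 28.3% of all genes were under it in either direction. DESeq2 without the offset gave 17 lower and 3 higher, where 22.1% and 18.9% of all genes were. The offset counts were unstable: 0 without control 1 or LPS_ABS 2 (1.15% and 1.56% of all genes lower), 1 without control 2 (1.62%) and 13 without LPS_ABS 3 (8.81%).

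Without the offset the 6 genes with the smallest p against controls were NUP35, SEH1L, NUP54, NUP107, NDC1 and RANBP2, all of them lower in each LPS_ABS library than in each control. NUP35, at 14.2, 11.9 and 10.6 CPM in controls and the LPS_ABS values above, differed by -1.28 ± 0.19 (edgeR adjusted p = 0.00107). NUP54 read 30.5, 30.0 and 28.9 CPM in controls, beside the LPS_ABS values above. SEH1L and NUP54 differed by -0.86 ± 0.14 (edgeR adjusted p = 0.00149) and -0.93 ± 0.15 (0.00173). Neither held with the offset, at -0.14 and -0.31 (edgeR adjusted p of 0.652 and 0.0883). NDC1 read 146, 155 and 154 CPM in controls, 119, 97.5 and 102 CPM with LPS and 86.6, 70.0 and 104 CPM with LPS_ABS. Its -0.81 ± 0.15 against controls (edgeR adjusted p = 0.00249) became -0.22 with the offset (0.358). NUP107, a core protein of the Y complex, read 46.9, 48.4 and 35.7 CPM in controls and 26.7, 17.3 and 13.7 CPM with LPS_ABS, a difference of -1.19 ± 0.22 (edgeR adjusted p = 0.00246). RANBP2, at 39.0, 31.0 and 49.9 CPM in controls, differed by -1.35 ± 0.25 (edgeR adjusted p = 0.0027). The 2 higher genes were AAAS at 0.43 (edgeR adjusted p = 0.0217) and NUP214 at 0.46 (0.0489), and with the offset they were at 0.09 (0.674) and 0.30 (0.183).

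With the offset, NUP107 read 39.2, 41.7 and 31.4 GC-corrected CPM in controls, 30.8, 30.1 and 31.2 with LPS and 29.9, 23.9 and 19.2 with LPS_ABS. The LPS_ABS libraries were the lowest, and NUP107 differed from controls by -0.62 ± 0.16 (edgeR adjusted p = 0.0233), lost without control 1, control 2 or LPS_ABS 2 (0.0877 to 0.106). RANBP2 read 31.8, 26.5 and 43.6 in controls, 30.2, 29.7 and 27.9 with LPS and 25.0, 15.2 and 20.7 with LPS_ABS. Controls were spread widely, and RANBP2 differed by -0.74 ± 0.19 (edgeR adjusted p = 0.026), lost without control 1, control 3 or LPS_ABS 2 (0.0656 to 0.112). NUP35 read 11.8, 10.2 and 9.31 in controls, 7.41, 5.92 and 7.41 with LPS and 5.79, 6.19 and 7.95 with LPS_ABS. LPS and LPS_ABS libraries of NUP35 overlapped and both lay below the controls, with -0.65 ± 0.17 against controls (edgeR adjusted p = 0.0279), lost in 4 of 9 leave-outs (0.057 to 0.13). NUP88 differed from controls by -0.42 ± 0.11 (edgeR adjusted p = 0.0225), lost without control 1, control 2 or LPS_ABS 2 (0.0675 to 0.109).

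**Figure D5:**
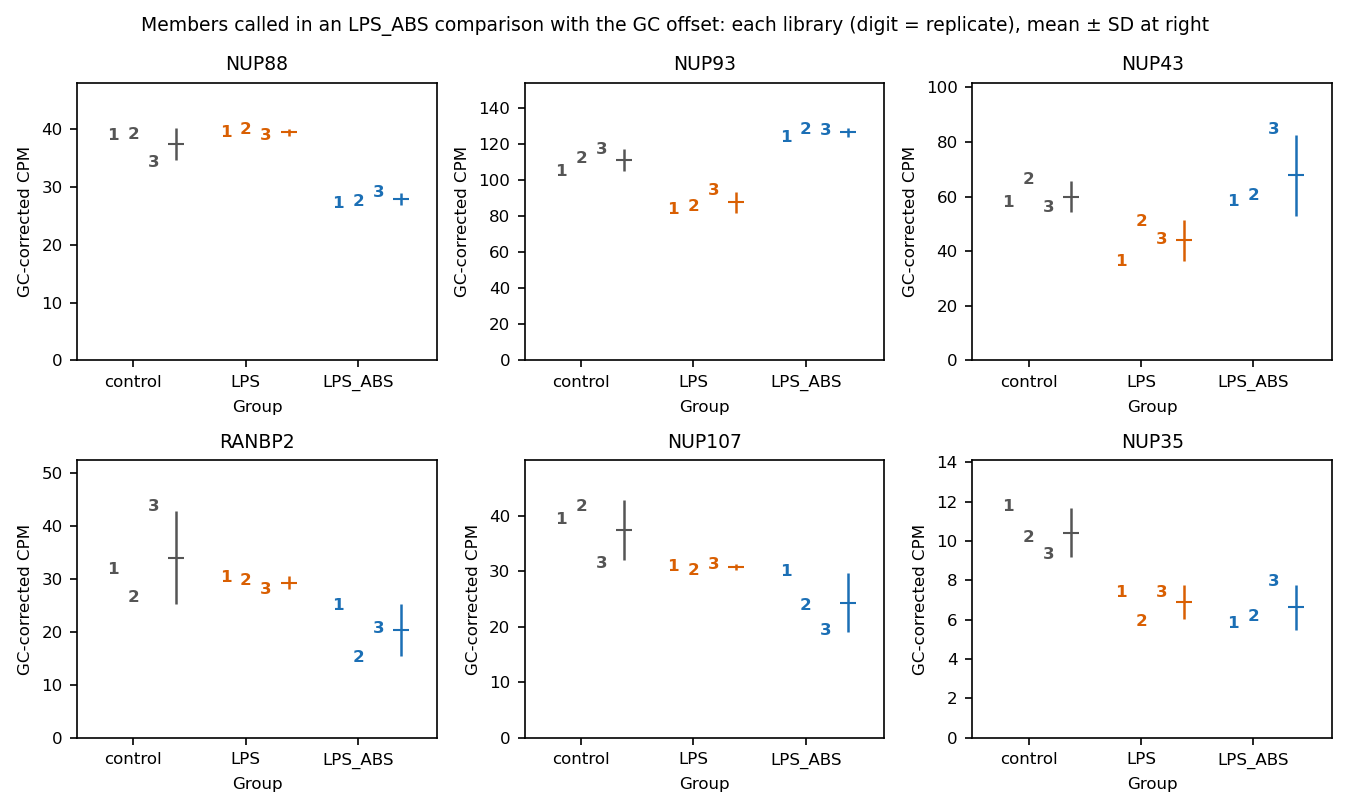
GC-corrected CPM in each library (digits mark the replicate) of the 6 pore genes called in a comparison with LPS_ABS once the GC offset was in the model, with mean ± SD (n = 3) at the right of each group. NUP88 lies at 27.1 to 29.1 in the LPS_ABS libraries against 34.2 to 40.0 in the other 6, and NUP93 at 124 to 128 against 83.9 to 117.

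The values of LPS against control and of LPS_ABS against LPS, both with the offset, can be set side by side for the 6 genes with the smallest p for LPS against control. NUP155 gave -0.89 and 0.51, SEH1L -0.59 and 0.45, SEC13 -0.50 and 0.22, NUP62 -0.62 and 0.33, NUP85 -0.47 and 0.26, and NUP133 -0.44 and 0.06. All 6 passed the test in the first comparison and 0 in the second. The 2 comparisons share the LPS libraries, so opposite signs are no independent result. Against controls, where fold changes use no LPS library without ABS, these 6 genes stood, in the same order, at -0.38, -0.14, -0.28, -0.30, -0.21 and -0.38 with LPS_ABS and the offset, none past the threshold (edgeR adjusted p of 0.0516 to 0.652). These values use the same controls as the comparison by which the 6 genes were picked, so their signs are no independent result either.

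Genes that work with the pore were taken from 4 lists. Unlike those of the pore genes, calls of single genes on these lists were not followed through the leave-outs. Of 25 karyopherins tested, 8 fell and 1 rose with LPS, where 7.19% of all genes tested fell and 7.71% rose. IPO4, an importin for histones and ribosomal proteins, fell by 0.94 ± 0.14 on the log2 scale (edgeR adjusted p = 0.00138), and KPNA3, an importin alpha that recognises nuclear localisation signals, fell by 0.56 ± 0.14 (0.0194). XPOT, which exports transfer RNA, rose by 1.03 ± 0.19 (edgeR adjusted p = 0.00399). The list's median was -0.35. Of 7 genes of the Ran cycle 3 fell and 0 rose, with a median of -0.39: RANBP1, which helps Ran hydrolyse GTP, at -0.63 ± 0.11 (edgeR adjusted p = 0.00381), RCC1, the exchange factor that loads Ran with GTP on chromatin, at -0.63 ± 0.12 (0.00499), and NUTF2, the importer of Ran itself, at -0.48 ± 0.11 (0.0116). With an unadjusted p under 0.05, 4 Ran cycle genes (57.1%) were lower, beside 15.2% of all genes. Of 22 messenger RNA export genes 3 fell and 1 rose, with a median of -0.16. Those with the smallest p were DDX19A, a helicase of the cytoplasmic face, at -0.73 ± 0.16 (edgeR adjusted p = 0.00917), ALYREF, an adaptor that loads export factors onto RNA, at -0.55 ± 0.12 (0.0104), and THOC5, of the THO complex, at 0.61 ± 0.15 (0.0156); DDX19A has the close copy DDX19B, which makes its counts uncertain. Of 14 genes of the nuclear envelope and lamina 0 fell and 2 rose, SUN2, which links lamina and cytoskeleton, at 0.55 ± 0.16 (edgeR adjusted p = 0.0377) and LMNA, which encodes A-type lamins, at 0.53 ± 0.17 (0.0492). The median of this list was -0.08. KPNA7, EMD and SYNE2 were not tested. Shares that fell and rose were 32% and 4% for karyopherins and 42.9% and 0% for the Ran cycle. They were 13.6% and 4.55% for export genes and 0% and 14.3% for envelope genes.

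With LPS_ABS against LPS, 4 karyopherins were higher and 7 lower, and with the GC offset 4 were higher and 0 lower. Of all genes tested, 16.8% were higher and 18.8% lower without the offset. IPO4 gave 1.16 without and 0.75 ± 0.12 with the offset (edgeR adjusted p = 0.00515), and the others were TNPO2 at 0.65 (0.0273), KPNA1 at 0.53 (0.0273) and IPO9 at 0.40 (0.0336). In the Ran cycle 5 were higher and 1 lower, and with the offset 4 of 7 were higher and 0 lower: RAN at 0.42 ± 0.10 (edgeR adjusted p = 0.0227), RANBP1 at 0.44 ± 0.11 (0.0329), RCC1 at 0.39 ± 0.11 (0.0384) and NUTF2 at 0.35 ± 0.10 (0.0437). Export genes went from 5 higher and 4 lower to 1 higher and 0 lower, CHTOP, which joins the TREX export complex, at 0.48 (edgeR adjusted p = 0.0265). Envelope genes went from 2 higher and 4 lower to 2 higher, LMNB2 at 0.45 (edgeR adjusted p = 0.0481) and TMPO at 0.35 (0.044), and 1 lower, SYNE1 at -0.87 (0.0409). Shares higher and lower with the offset were 16% and 0% for karyopherins and 57.1% and 0% for the Ran cycle. They were 4.55% and 0% for export genes and 14.3% and 7.14% for envelope genes, beside 5.0% and 4.23% of all genes. Medians with the offset were 0.15, 0.35, 0.07 and 0.07 for the 4 lists in this order, beside 0.00 for all genes.

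Against controls with the offset, LPS_ABS cells had 2 karyopherins higher and 5 lower, among them XPOT at 0.79 ± 0.15 (edgeR adjusted p = 0.00474), KPNA1 at 0.64 ± 0.13 (0.00726) and XPO1, the main exporter of proteins, at -0.47 ± 0.10 (0.00905). RAN was higher at 0.40 ± 0.10 (edgeR adjusted p = 0.018) and RANBP6, an importin-like protein, lower at -0.53 ± 0.14 (0.0272). Of the export genes 2 were higher and 2 lower, with the smallest p for CHTOP at 0.75 ± 0.12 (edgeR adjusted p = 0.00183), THOC5 at 0.65 ± 0.16 (0.0169) and PCID2, of the TREX-2 complex at the basket, at -0.43 ± 0.11 (0.0187). SUN2 was the 1 envelope gene called, higher at 0.58 ± 0.12 (edgeR adjusted p = 0.00958). Shares higher and lower with the offset were 8% and 20% for karyopherins and 14.3% and 14.3% for the Ran cycle. They were 9.09% and 9.09% for export genes and 7.14% and 0% for envelope genes, beside 7.96% and 5.04% of all genes. Without the offset the same lists had 0 and 10, 1 and 1, 2 and 7, and 2 and 5 genes higher and lower. Of all genes 14.8% were then higher and 19.0% lower.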

How the data were processed

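RNA sequencing of 9 libraries was analysed. Per the labels' protocols, RNA was extracted with TRIzol, and every sample names 2 library kits, VAHTS Universal V5 and TruSeq stranded mRNA. Tools named, per the submitters' processing notes, are HTSeq, HISAT2, fastp, DESeq2 and R 3.2.0; genome build, annotation and strand setting are not given in these sources. The authors deposited raw read counts per gene and, in a second table, FPKM values, which equal the counts divided by 1 length per gene and the library total. The genes tested held 99.985% of all counts, summed over the 9 libraries. The common coefficient of variation between libraries was 18.4%, or 16.1% with the GC offset. Within groups the chi-square per degree of freedom of library pairs was at least 7.46, so no pair was a duplicate.

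The count test was that of edgeR 4.0.16 (R 4.3.3): filterByExpr, TMM, 3 group means over all 9 libraries, quasi-likelihood F test, 6 residual degrees of freedom, Benjamini-Hochberg adjustment over 12970 genes, called at an adjusted p under 0.05. The GC offset is a lowess (span 0.3) of each library's log2 CPM, relative to the mean, on the GC content of the longest coding GENCODE transcript, known for 16047 of 16222 genes and all 32 members (NUP42 under an older symbol). Shared sequence was counted as 50-base windows of that transcript found in transcripts of other genes. Alternatives were DESeq2 1.42.0, limma-voom (limma 3.58.1), other scalings, no filter, 2-group fits, a replicate block and leaving out each library; leaving out libraries with the GC offset was chosen after seeing the data. Values in each library are given for the 6 members with the smallest p in each comparison. With LPS_ABS they are also given for the 4 with the smallest p with the offset. From each partner list, fold changes are given for at most 3 called genes with the smallest p, or all called where a list is short. The members and lists were chosen with earlier results of these data known. Groups come from the treatment in the labels and columns were matched by title.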

Additional observations from a re-analysis of the deposited data

How the results depend on the processing

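Falls among the 32 pore genes with LPS numbered 10 in edgeR, 14 with DESeq2, 13 with limma-voom, 7 with no filter on low counts and 16 in a fit of the 2 groups alone, when 7.19%, 9.49%, 8.15%, 4.61% and 13.3% of all genes fell, and they ran from 1 to 15 when 1 library was left out (2.50% to 10.5%). For LPS_ABS against LPS, 10 were higher and 9 lower (16.8% and 18.8% of all genes). The higher count was 6 in the 2-group fit (9.1%), 2 with the GC offset (5.0%) and 6 to 9 over the leave-outs (7.63% to 16.4%). It was 4 with the replicate block and GC offset together (5.86%). The lower count was 1 with the GC offset (4.23%), 1 with block and offset (5.06%) and 4 to 10 over the leave-outs (10.3% to 21.1%). For LPS_ABS against control, 2 were higher and 17 lower (14.8% and 19.0% of all genes). The higher count was 0 under total-count scaling (9.19%), 1 in the 2-group fit (15.2%) and 0 with the GC offset (7.96%). It was 0 with block and offset (8.07%), 3 with DESeq2 (18.9%) and 0 to 2 over the leave-outs (6.90% to 17.4%). The lower count was 4 with the offset (5.04%), 5 with block and offset (5.47%) and 12 to 19 over the leave-outs (11% to 20.6%). With the GC offset, leave-outs gave 4 to 16 falls for LPS against control (4.63% to 13.3% of all genes). For LPS_ABS against LPS they gave 1 to 10 higher (0.852% to 11.3%) and 0 to 5 lower (0.571% to 9.68%). For LPS_ABS against control they gave 0 to 13 lower (1.15% to 8.81%) and 0 higher (3.33% to 11.1%). Fewer libraries enter each leave-out; which library property moves the counts was not tested.

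The sign changed for 2 genes that were called lower in LPS_ABS than in control without the offset, and neither was called higher. NUP37 was at 0.15 with the GC offset (edgeR adjusted p = 0.479) and 0.14 with block and offset. NUP58 was at 0.0077 with the offset (edgeR adjusted p = 0.979). The cause was not tested. Over all alternatives and single pore genes, 2145 values kept direction and side of the threshold, 255 lost the call, 93 gained one, and 96 changed sign without a call in either setting. Same-numbered libraries of different groups had correlations of their deviations between -0.04 and 0.20, and differently numbered ones between -0.20 and 0.17. With 3 libraries per group these values cannot decide whether the replicate numbers pair the samples. The replicate block alone gave 12 falls with LPS (7.38% of all genes). It gave 10 higher and 10 lower for LPS_ABS against LPS (17.0% and 20.3%), and 3 higher and 17 lower for LPS_ABS against control (14.8% and 20.4%). Limits are the 3 libraries per group, the doubt over separate cultures, the GC trend shared by all LPS_ABS libraries, unknown strand handling, and near-identical copies of POM121C, POM121, AHCTF1 and RANBP2.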
